A study of Mus musculus with 8 samples.

Results

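The 51 genes described here drive the cell cycle and copy the genome. They were taken from a fixed list of mouse symbols matched to the Ensembl identifiers of the deposited expression table, and all 51 were found among its 15538 genes. By role, 14 are regulators of G1 phase and of its exit, 18 belong to the DNA replication machinery and 19 act in G2 phase and mitosis. RNA was measured by bulk RNA sequencing of polyadenylated RNA from primary neurospheres, floating clusters of cultured neural stem cells, prepared from embryonic mouse brain. The groups were 4 libraries labelled with the genotype Phf23-/- and 4 libraries labelled WT. Phf23 encodes a PHD finger protein, and by its design text the study asked how Phf23 loss affects the differentiation of embryonic neural stem cells. The sources used here do not give the allele, the strain, the embryonic age, any Cre driver or the number of passages. Nothing in the labels says that the 4 libraries of a genotype came from separate embryos or cultures, so the p-values rest on library-to-library spread alone, part of which may be technical.

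In G1 phase, D-type cyclins bind Cdk4 or Cdk6 and phosphorylate the retinoblastoma family of repressors, which frees E2F factors to switch on cyclin E and the genes of DNA synthesis. Replication origins are licensed by Cdc6 and Cdt1, which load the MCM helicase, and Cdc45 and the GINS complex then activate it for the polymerases. Cyclin A and cyclin B with Cdk1 drive entry into mitosis, where kinesins, centromere proteins and the spindle checkpoint separate the chromosomes. In embryonic neural stem cells, the length of G1 and the cyclins that set it are known to bear on the choice between self-renewal and differentiation.

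The libraries held 18099114 to 19462516 recovered reads in the Phf23-/- group and 15647304 to 18241215 in the WT group (exact two-sided permutation test, p = 0.114). The deposited values are read counts divided by 1 scaling factor per library and are called normalised reads here. The targeted gene, Phf23, was more abundant in the Phf23-/- group, at 1607, 1528, 1429 and 1361 normalised reads, against 720.4, 766, 788 and 919 in WT (log2 0.89 ± 0.11, FDR 0.000581). A deletion can leave the transcript in place, so this does not check the genotype, and "knockout-labelled" is used below for what the labels say. The change of a gene between the groups moved with the length of its transcript. The slope of each library's log2 deviation on log2 transcript length, over 13265 genes, was -0.24, -0.31, -0.093 and 0.040 in knockout-labelled libraries 1 to 4, against 0.26, 0.20, 0.079 and 0.062 in WT libraries 1 to 4. These slopes did not overlap (exact two-sided permutation test, p = 0.0286, the smallest that 4 against 4 allows). Every gene was therefore tested on the deposited values and again with the trend of each library's values in length and GC content removed (the subtracted values), both with limma on a log2(value + 1) scale and the Benjamini-Hochberg false discovery rate (FDR) over all genes. A gene is called at FDR under 0.05, and log2 fold changes are knockout-labelled over WT with their standard error.

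All 10 neural stem cell markers were in the table, with a summed level of 156339 to 198886 normalised reads in knockout-labelled libraries and 134752 to 144976 in WT libraries. On deposited values 4 of them were called higher, Fabp7, Msi1, Hes1 and Hes5. After subtraction Hes1 (FDR 0.0635) and Hes5 (FDR 0.0839) were no longer called, and Vim was called higher there only (log2 0.36, FDR 0.0208). The 9 neuronal markers were also all present, and their sums did not overlap between the genotypes, at 19367 to 21146 normalised reads in knockout-labelled libraries and 22354 to 27102 in WT libraries, with 3 called higher and 1 lower. The lower marker was Map2, which averaged 10077 normalised reads in knockout-labelled libraries and 17464 in WT libraries, and of the higher ones Gap43 averaged 9281 in knockout-labelled libraries and 6493 in WT libraries. The 5 astrocyte markers summed to 4094 to 5444 normalised reads in knockout-labelled libraries and 4163 to 5193 in WT libraries, and the 6 oligodendrocyte lineage markers to 18541 to 19813 in knockout-labelled libraries and 15308 to 20168 in WT libraries. Of the astrocyte markers 3 were called higher and 2 lower, and of the oligodendrocyte lineage markers 4 higher and 0 lower by limma on deposited values, among them Sox10 at log2 1.27, Mbp at 2.16 and Mag at 2.39. Of the microglial, endothelial and mesenchymal markers, 1 of 5, 2 of 4 and 2 of 4 were in the table, with sums of at most 50.9 normalised reads in any library. Cx3cr1, Csf1r, Aif1 and Tmem119 of microglia, Cldn5 and Cdh5 of endothelium and Dcn and Pdgfrb of mesenchyme were not among the genes analysed. The part that a different mix of cell types has in the results below was not tested, and in bulk RNA fewer cycling cells and less RNA per cycling cell cannot be told apart.

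On the deposited values, 17 of the 51 genes were called, 6 higher and 11 lower in the knockout-labelled libraries. That is 33.3%, beside a background of 29.6% of all 15538 genes called, with 14.8% higher and 14.8% lower. Mitotic genes made up most of those that fell, with 7 of 19 lower and 1 higher, while G1 regulators were split into 4 higher and 2 lower of 14, and replication genes into 1 higher and 2 lower of 18. After the length and GC trend was subtracted, 9 of 51 genes were called, 2 higher and 7 lower, a share of 17.6% beside a background of 18.4% of 15531 genes (10.6% higher and 7.87% lower). The calls were 1 higher and 1 lower among G1 regulators, 1 higher and 1 lower among replication genes, and 5 lower and none higher among mitotic genes. The whole list was thus called about as often as other genes in either fit, and 33 of its genes were called in neither. That background includes low genes, while all members are well covered. With only genes averaging at least 10 normalised reads tested, 17 members were called on deposited values, beside 35.5% of genes. After subtraction 8 were called in that setting, beside 22.2%. The groups did not overlap in 5 members with higher and 12 with lower knockout-labelled values on deposited values, beside 27.7% of all genes in either direction (13.6% higher and 14.2% lower). After subtraction they did not overlap in 5 with higher and 4 with lower values, beside 22.6% of all genes (11.9% higher and 10.7% lower). Single libraries weighed on these counts. On deposited values 5 members were called without knockout-labelled library 1, 10 without WT library 1 and 6 without WT library 2, with 12.1%, 14.1% and 13.6% of all genes. After subtraction 4 were called without any 1 of those 3 libraries (9.78%, 9.82% and 10.6% of all genes) and 14 without knockout-labelled library 4 (24.1%).

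The classes differed in the balance of their signs once length was accounted for. After subtraction, the median log2 fold change was 0.15 for G1 regulators, 0.0031 for replication genes and -0.13 for mitotic genes, beside -0.0041 for all genes. G1 regulators had 11 positive and 3 negative values, replication genes 9 and 9, and mitotic genes 3 and 16. On the deposited values, the medians were 0.028, 0.046 and -0.16 in the same order, beside 0.00055 for all genes, and mitotic genes had 7 positive and 12 negative values. No test was made of a class as a whole. In the 4 libraries with the flattest length slopes, the subtracted medians were 0.050 for G1 regulators, -0.057 for replication genes and -0.026 for mitotic genes. With exon union length the G1 median was 0.046. In 15 of the 51 genes, the fold change took the opposite sign in the 2 fits.

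**Figure D1:**
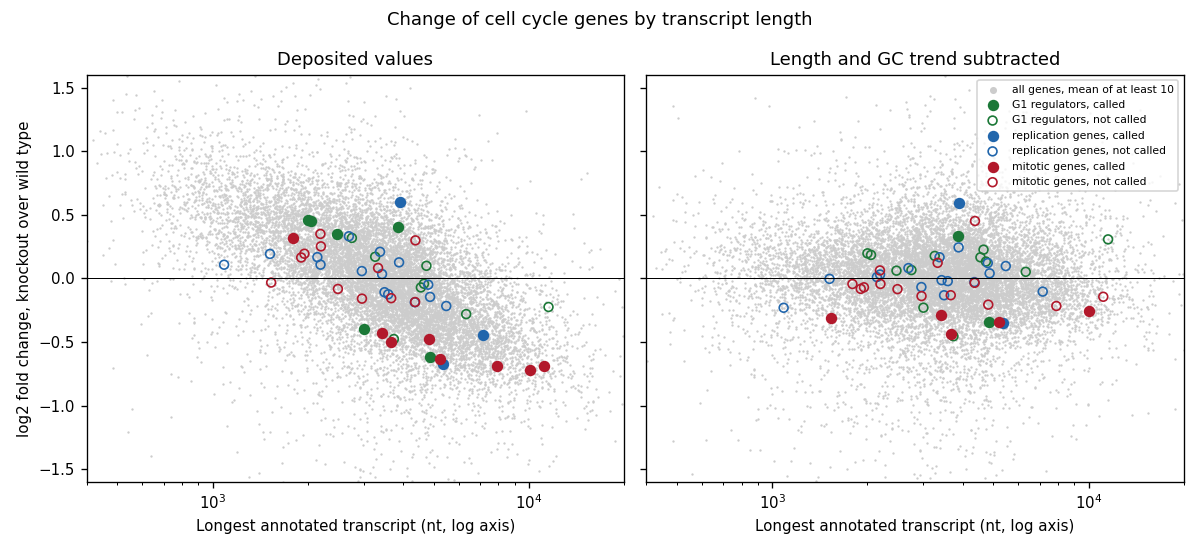
Log2 fold change (knockout-labelled over WT, vertical axis) of each gene against the length of its longest transcript in nt (horizontal axis, log scale), on the deposited values (left) and with the length and GC trend subtracted (right). Coloured points are the G1, replication and mitotic genes, filled where called, and grey points are all genes averaging 10 normalised reads or more, of which those beyond the axis limits are not drawn. The members slope downwards on the left, with a Spearman correlation of -0.679, and not on the right, where it is -0.0254.

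Transcript length ordered the members in the deposited values. The Spearman correlation of length with log2 fold change was -0.679 over the 51 genes, -0.657 within the G1 regulators, -0.703 within the replication genes and -0.790 within the mitotic genes, beside -0.598 over the 13265 genes with a mean of at least 10. All these points share the same 8 libraries, so the correlations are descriptions only. The 26 members with transcripts of up to 3589 nt had a median log2 fold change of 0.17, with 4 called higher and 2 lower. The 25 longer members had a median of -0.22, with 2 called higher and 9 lower. Over all genes of any length, 14.8% were called higher and 14.8% lower. Shares of all genes by length were not taken, so these counts do not set the members apart from other genes of like length. After subtraction the medians of these shorter and longer members were -0.018 and -0.029. Within the mitotic genes a correlation of -0.312 was left over after subtraction, beside -0.0110 in the G1 regulators, 0.0712 in the replication genes and -0.0554 over all genes with a mean of at least 10.

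**Figure D2:**
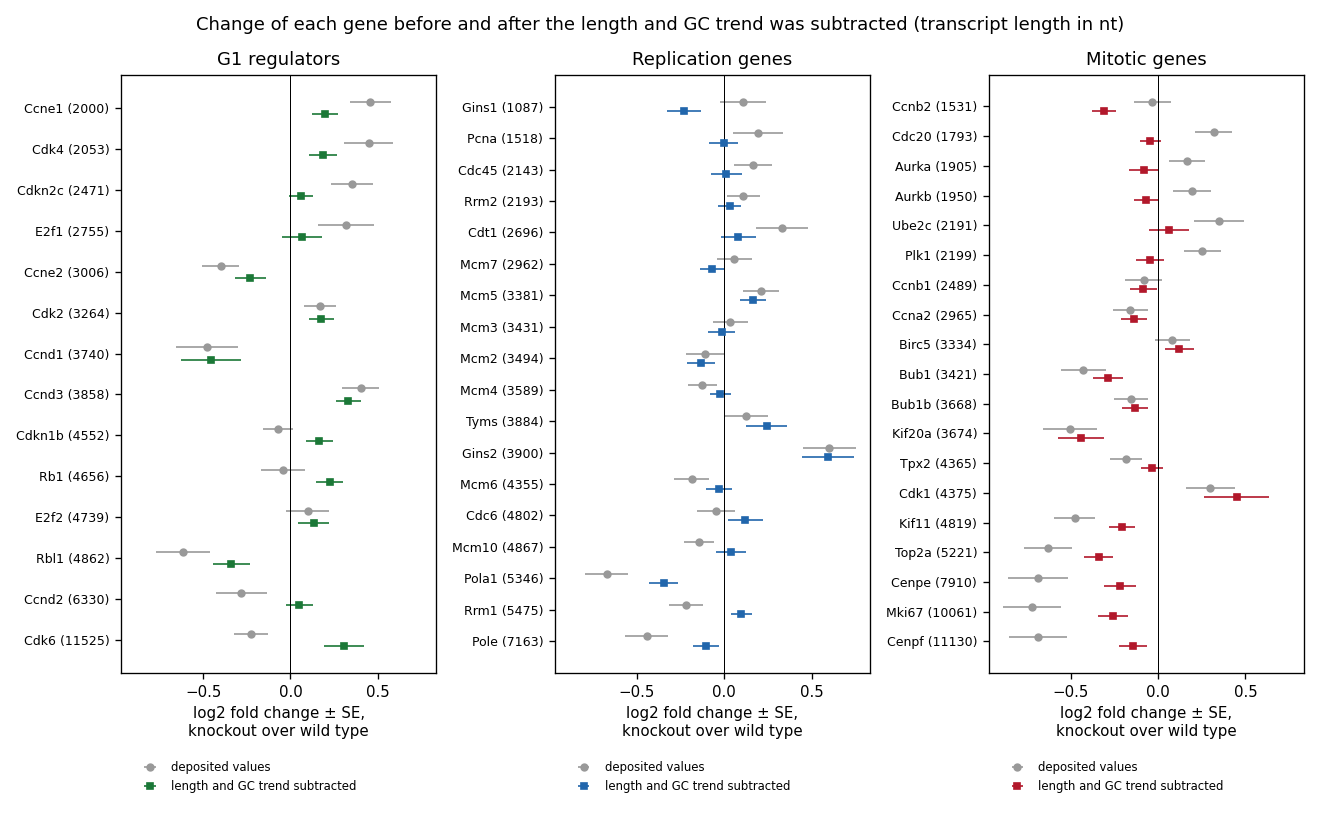
Log2 fold change ± SE (horizontal axis, knockout-labelled over WT, 4 libraries each) of every gene in its class, sorted by transcript length in nt (in brackets). Grey circles are deposited values and coloured squares are values with the length and GC trend subtracted. Short genes such as Cdc20 and Ube2c lie to the right on deposited values and move towards or past 0, while long genes such as Cenpf and Mki67 lie far to the left and move back towards 0.

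The promoters of these classes carry different short words, and a few are shown as sequence context for the classes. RefSeq windows on GRCm38.p6, running from 250 bases before to 50 after the transcript start, were matched for 39 of the 51 genes, in 43 windows. They were searched on either strand for 4 spellings of the E2F site (TTTCCCGC, TTTCGCGC, TTTGCCGC and TTTGGCGC), for TTTGAA, the core of the cell cycle homology region (CHR) of G2 and mitotic promoters, and for the CCAAT box. The CHR word was found in 11 of 15 mitotic windows (73.3%), 2 of 15 replication windows (13.3%) and 1 of 13 G1 windows (7.69%), beside 17.9% of all 32851 windows. The E2F words were found in 1 of 15 mitotic windows (6.67%), 7 of 15 replication windows (46.7%) and 3 of 13 G1 windows (23.1%), beside 2.27% of all windows. The CCAAT box was present in 14 of 15 mitotic, 12 of 15 replication and 6 of 13 G1 windows, beside 37.4% of all windows. All 11 mitotic windows with the CHR word also held the CCAAT box, a combination found in 6.95% of all windows. They belong to Ccnb2, Cenpf, Kif11, Mki67 and Top2a, which were called lower in at least 1 fit, to Cdc20, which was called higher on deposited values, and to Aurka, Bub1b, Cdk1, Plk1 and Ube2c, which were not called. The windows of Bub1 and Cenpe, which were called lower, held no CHR word. A match is a run of letters and not a measured binding site. These 7 windows, 5′ to 3′ on the gene's strand with the matched words in capitals, belong to Ccnb2, Top2a and Mki67 as mitotic genes called lower, to Cdc20 as the mitotic gene called higher on deposited values, to Pola1 and Mcm6 as a called and an uncalled replication gene, and to Rbl1 as a called G1 regulator.
Ccnb2 (chr9:70421505-70421804, minus strand): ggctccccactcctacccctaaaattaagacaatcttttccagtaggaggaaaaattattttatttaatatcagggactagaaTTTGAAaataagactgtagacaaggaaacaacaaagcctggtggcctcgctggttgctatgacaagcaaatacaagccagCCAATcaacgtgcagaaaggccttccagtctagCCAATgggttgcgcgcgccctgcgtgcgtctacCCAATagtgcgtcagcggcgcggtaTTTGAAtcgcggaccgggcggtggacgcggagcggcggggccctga
Top2a (chr11:99024140-99024439, minus strand): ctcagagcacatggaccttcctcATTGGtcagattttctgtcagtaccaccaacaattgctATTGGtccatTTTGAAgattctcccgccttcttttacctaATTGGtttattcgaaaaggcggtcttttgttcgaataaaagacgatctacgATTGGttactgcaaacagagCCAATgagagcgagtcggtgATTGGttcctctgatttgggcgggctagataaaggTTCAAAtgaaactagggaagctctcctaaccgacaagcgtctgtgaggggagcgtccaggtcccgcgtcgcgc
Mki67 (chr7:135716330-135716629, minus strand): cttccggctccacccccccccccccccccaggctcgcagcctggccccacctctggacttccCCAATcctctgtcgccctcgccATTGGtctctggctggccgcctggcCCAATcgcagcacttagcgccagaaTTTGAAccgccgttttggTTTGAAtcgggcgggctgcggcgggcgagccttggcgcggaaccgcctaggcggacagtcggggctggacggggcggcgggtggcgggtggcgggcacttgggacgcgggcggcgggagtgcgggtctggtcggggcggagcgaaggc
Cdc20 (chr4:118437294-118437593, minus strand): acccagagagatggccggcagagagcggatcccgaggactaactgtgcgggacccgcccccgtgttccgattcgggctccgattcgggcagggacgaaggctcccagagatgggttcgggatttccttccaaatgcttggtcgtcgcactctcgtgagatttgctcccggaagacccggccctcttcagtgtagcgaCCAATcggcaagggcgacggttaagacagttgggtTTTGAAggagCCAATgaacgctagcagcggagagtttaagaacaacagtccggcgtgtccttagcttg
Pola1 (chrX:93632106-93632405, minus strand): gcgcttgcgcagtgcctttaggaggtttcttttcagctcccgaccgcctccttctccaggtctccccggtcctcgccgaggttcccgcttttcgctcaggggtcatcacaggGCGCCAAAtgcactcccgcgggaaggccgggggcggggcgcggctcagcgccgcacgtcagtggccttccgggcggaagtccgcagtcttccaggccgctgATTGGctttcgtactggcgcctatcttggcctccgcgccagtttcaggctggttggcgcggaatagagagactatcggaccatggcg
Mcm6 (chr1:128359656-128359955, minus strand): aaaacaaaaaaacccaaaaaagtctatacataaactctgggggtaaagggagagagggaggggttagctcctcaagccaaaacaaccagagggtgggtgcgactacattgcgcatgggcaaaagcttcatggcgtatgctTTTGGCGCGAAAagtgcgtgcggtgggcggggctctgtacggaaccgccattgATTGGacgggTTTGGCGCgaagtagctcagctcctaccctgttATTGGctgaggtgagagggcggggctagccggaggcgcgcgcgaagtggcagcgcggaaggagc
Rbl1 (chr2:157204485-157204784, minus strand): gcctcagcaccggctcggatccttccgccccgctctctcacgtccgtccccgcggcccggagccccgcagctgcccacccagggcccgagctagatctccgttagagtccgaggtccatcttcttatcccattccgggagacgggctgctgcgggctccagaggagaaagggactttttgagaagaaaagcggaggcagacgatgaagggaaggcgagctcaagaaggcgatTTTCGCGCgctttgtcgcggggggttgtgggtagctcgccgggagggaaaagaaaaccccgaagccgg
The Ccnb2 and Mki67 windows each held the CHR word 2 times and the CCAAT box 3 times, and the Top2a window held them 2 and 6 times. The Mcm6 window held 3 E2F words, of which 2 overlap on opposite strands, and the Pola1 and Rbl1 windows held 1 each.

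Among the G1 regulators, only Ccnd3 of the D-type cyclins was called. Ccnd1, the most abundant G1 transcript per length, had 23436, 15729.7, 27582 and 32297 normalised reads in knockout-labelled libraries 1 to 4, against 33949.8, 32888, 32699 and 33726 in WT libraries 1 to 4. All 4 knockout-labelled libraries were below all WT libraries and were spread widely, with library 2 lowest, while the WT libraries were nearly level. The difference missed the threshold in either fit (log2 -0.48 ± 0.18, FDR 0.0592; after subtraction log2 -0.45 ± 0.17, FDR 0.097, 95% interval -0.84 to -0.068). It was called lower by DESeq2 on deposited values and, by limma, without knockout-labelled library 4 (FDR 0.00684 on deposited values). After subtraction it was called without knockout-labelled library 2 or 4, the lowest FDR being 0.0140. Ccnd2 had 29302, 23950.4, 32307 and 40133 normalised reads in knockout-labelled libraries, against 41789.9, 39878, 33869 and 35127 in WT libraries. The ranges overlapped, with knockout-labelled library 4 between the WT libraries, and the gene was called in neither fit (log2 -0.28, FDR 0.17; after subtraction log2 0.052, FDR 0.678).

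Ccnd3, the remaining D-type cyclin, rose in the knockout-labelled libraries in either fit. It is annotated at chr17:47505051-47599691 on the plus strand of GRCm38 (ENSMUSG00000034165). It had 1715, 1418, 1717 and 1551 normalised reads in knockout-labelled libraries 1 to 4, against 1081, 1159.6, 1229.7 and 1379.7 in WT libraries 1 to 4, so that every knockout-labelled library lay above every WT library. Its mean was 1600.3 ± 144 in knockout-labelled libraries and 1212 ± 127 in WT libraries (SD, n = 4 each), a ratio of 1.32 (log2 0.40 ± 0.11, FDR 0.0176; after subtraction log2 0.33 ± 0.072, FDR 0.00669). The subtracted call was kept without any 1 of the 8 libraries, while the call on deposited values was lost without knockout-labelled library 1 or 3 or WT library 1 or 2 (FDR 0.0526 to 0.0627). Ccnd3 shares 361 exon bases with Bysl on the opposite strand, a gene that was called in neither fit (log2 0.36, FDR 0.0707; after subtraction log2 0.34, FDR 0.0663). With the APPRIS principal transcript of 2113 nt in place of the longest, of 3858 nt, Ccnd3 was not called (log2 0.11, FDR 0.393).

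The E-type cyclins, which activate Cdk2 at the entry into S phase, moved in opposite directions on the deposited values. Ccne1 had 1181, 1176, 1014 and 894 normalised reads in knockout-labelled libraries, against 728, 707, 836 and 826 in WT libraries. Every knockout-labelled library was above every WT library (log2 0.46 ± 0.12, FDR 0.0152), and the call was lost without knockout-labelled library 1 or WT library 2 (FDR 0.0555 to 0.0575). Ccne2 had 574, 608, 634 and 517 normalised reads in knockout-labelled libraries, against 763, 799, 829 and 687 in WT libraries. Here every knockout-labelled library was below every WT library (log2 -0.40 ± 0.11, FDR 0.0179), and the call was lost without knockout-labelled library 1 or WT library 2 or 3 (FDR 0.0513 to 0.0602). After subtraction both kept their signs and neither was called, Ccne1 at log2 0.20, FDR 0.0799 and Ccne2 at log2 -0.23, FDR 0.084. Ccne2 shares 609 exon bases with Ints8 on the opposite strand, which fell in either fit (log2 -0.47, FDR 0.0309; after subtraction log2 -0.35, FDR 0.0459).

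**Figure D3:**
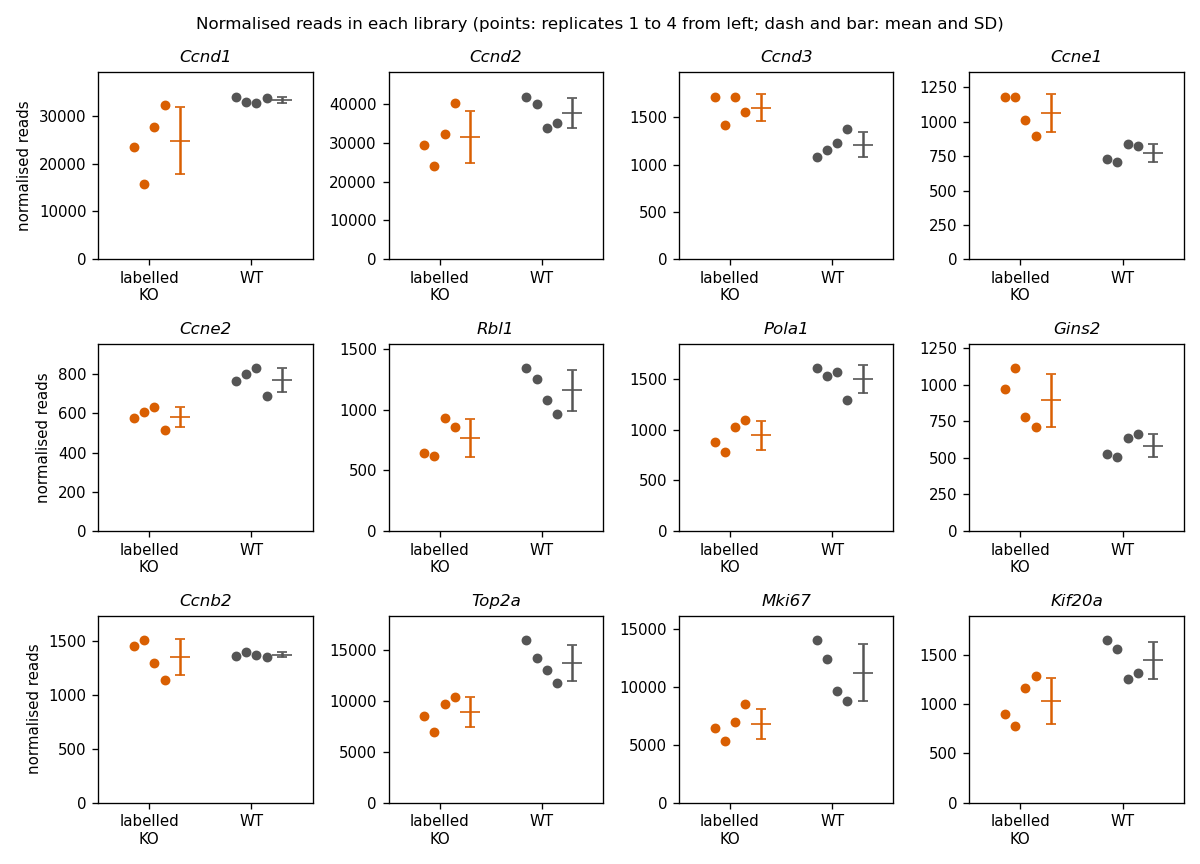
Normalised reads (vertical axis, from 0) of 12 genes in each library, with knockout-labelled libraries in orange on the left of each panel and WT libraries in grey on the right, replicates 1 to 4 from left to right. Dashes and bars are the mean and SD of 4 libraries. The groups do not overlap for Ccnd1, Ccnd3, Ccne1, Ccne2, Rbl1, Pola1, Gins2, Top2a and Mki67, and overlap for Ccnd2, Ccnb2 and Kif20a.

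Of the cyclin-dependent kinases of G1, Cdk4, the partner of the D-type cyclins, had 9841, 11052, 8392 and 7204 normalised reads in knockout-labelled libraries, against 5704, 6181, 7187 and 7485 in WT libraries (log2 0.45 ± 0.14, FDR 0.0304). The highest values were in knockout-labelled libraries 1 and 2, and knockout-labelled library 4 lay below WT library 4. The call was lost without knockout-labelled library 1 or 2 or WT library 1 or 2 (FDR 0.0706 to 0.0965), and after subtraction Cdk4 was at log2 0.18, FDR 0.121. It shares 641 exon bases with Tspan31 on the opposite strand, which was not called (log2 0.019, FDR 0.896). Cdk6, the other D-cyclin partner and the longest member at 11525 nt, was at log2 -0.22, FDR 0.0981 on deposited values and at log2 0.31, FDR 0.0776 after subtraction. Cdk2 was at log2 0.17, FDR 0.173 and, after subtraction, at log2 0.18, FDR 0.0922. Neither was called in either fit, but with exon union length Cdk2 was called higher after subtraction (log2 0.30, FDR 0.0168).

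Rbl1, a retinoblastoma family repressor that binds E2F factors, fell in either fit. It had 646, 616, 934 and 856 normalised reads in knockout-labelled libraries 1 to 4, against 1341, 1254, 1081 and 968 in WT libraries 1 to 4, with no overlap. Libraries 1 and 2, which had the steepest length slopes of each group, held the lowest knockout-labelled and the highest WT values. The mean was 763 ± 156 in knockout-labelled libraries and 1161 ± 168 in WT libraries, a ratio of 0.657 (log2 -0.62 ± 0.15, FDR 0.0132), and the change was smaller after subtraction (log2 -0.34 ± 0.11, FDR 0.0368). On deposited values the call was lost without knockout-labelled library 1 (FDR 0.0521). After subtraction it was lost without knockout-labelled library 1 or 2 or WT library 1, 2 or 3 (FDR 0.0642 to 0.118). In the 4 libraries with the flattest slopes Rbl1 was not called (log2 -0.19, FDR 0.35; after subtraction log2 -0.077, FDR 0.648). Rb1, the founding member of the family, was at log2 -0.042, FDR 0.828 on deposited values and log2 0.23, FDR 0.0554 after subtraction, and was called in neither. It shares 488 exon bases with Rcbtb2 and 408 with Lpar6, both on the opposite strand. After subtraction Lpar6 was called higher (log2 0.59, FDR 0.0157), though not in the 4 libraries with the flattest slopes (log2 0.33, FDR 0.220). Rcbtb2 was not called after subtraction (log2 0.097, FDR 0.435).

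The inhibitor gene Cdkn2c, which blocks Cdk4 and Cdk6, had 2823, 2418, 2597 and 2587 normalised reads in knockout-labelled libraries, against 1684, 1884, 2301 and 2366 in WT libraries. Every knockout-labelled library was above every WT library (log2 0.35 ± 0.12, FDR 0.0413). The call was lost without knockout-labelled library 1 or 3 or WT library 1 or 2 (FDR 0.0823 to 0.129), and after subtraction Cdkn2c was at log2 0.061, FDR 0.583. Cdkn1b, which inhibits cyclin E with Cdk2, was at log2 -0.071, FDR 0.572 and, after subtraction, log2 0.17, FDR 0.136. The activator E2f1 was at log2 0.32, FDR 0.156 and log2 0.065, FDR 0.729. E2f2, the G1 regulator with the lowest mean level per length over all 8 libraries, had 796, 599, 689 and 755 normalised reads in knockout-labelled libraries, against 589, 622, 665 and 775 in WT libraries, and was called in neither fit (log2 0.099, FDR 0.582; after subtraction log2 0.13, FDR 0.316). Per kb of transcript, E2f2 had 149.8 normalised reads in knockout-labelled and 139.8 in WT libraries, and Ccnd1 had 6621 in knockout-labelled and 8908 in WT libraries. In the knockout-labelled libraries Cdk6 was below E2f2, at 136, against 159 in WT libraries, where it was above.

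Of the 18 replication genes, 3 were called on deposited values (16.7%, beside 29.6% of all genes). After subtraction 2 were called (11.1%, beside 18.4% of all genes). The 7 MCM genes, of which Mcm2 to Mcm7 form the helicase ring and Mcm10 acts in its activation, were called in neither fit, with log2 fold changes of -0.19 (Mcm6) to 0.21 (Mcm5) on deposited values and of -0.13 (Mcm2) to 0.17 (Mcm5) after subtraction. The licensing factors were also not called, Cdc6 at log2 -0.050, FDR 0.762 and after subtraction log2 0.12, FDR 0.423, and Cdt1 at log2 0.33, FDR 0.113 and log2 0.081, FDR 0.604. Cdc6, which had the lowest level of the class per kb of longest transcript but not of principal transcript, had 721, 618, 774 and 647 normalised reads in knockout-labelled libraries, against 665, 679, 750.4 and 756 in WT libraries, and these ranges overlapped. Cdc45, which joins the helicase at origin firing, was at log2 0.17, FDR 0.265 and log2 0.010, FDR 0.953.

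Gins2 and Gins1, encode subunits of the GINS complex that activates the helicase, and of these Gins2 was called. Gins2 had 968, 1113, 782 and 709 normalised reads in knockout-labelled libraries 1 to 4, against 530.0, 503, 635 and 666 in WT libraries 1 to 4. All knockout-labelled libraries were above all WT libraries, and libraries 1 and 2 of the knockout-labelled group were the highest. The gene rose in either fit by nearly the same amount (log2 0.60 ± 0.15, FDR 0.0137; after subtraction log2 0.59 ± 0.15, FDR 0.0193). The call was lost without knockout-labelled library 1 or WT library 2 on deposited values (FDR 0.0514 to 0.0526), and without knockout-labelled library 1 or WT library 1 or 2 after subtraction (FDR 0.0582 to 0.0656). Its annotated exons cover 4097 nt, of which 2758 are shared with Gse1 on the opposite strand. Reads from that stretch cannot be told from those of Gse1 if strand was not used in counting. In the 4 libraries with the flattest length slopes Gins2 was not called (log2 0.20, FDR 0.38; after subtraction log2 0.19, FDR 0.223). Gse1 had 421, 168, 661 and 868 normalised reads in knockout-labelled libraries, against 708, 626, 655 and 855 in WT libraries, with the lowest value in the library where Gins2 was highest, and was not called (log2 -0.65, FDR 0.227). Gins1 was at log2 0.11, FDR 0.565 on deposited values and log2 -0.23, FDR 0.117 after subtraction.

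Pola1, the catalytic subunit of the polymerase that primes DNA synthesis, had the lowest FDR of the replication genes in both fits. It is annotated at chrX:93304767-93632155 on the minus strand (ENSMUSG00000006678). It had 875, 782, 1028 and 1089.9 normalised reads in knockout-labelled libraries 1 to 4, against 1604, 1531, 1568 and 1293 in WT libraries 1 to 4. Every knockout-labelled library was below every WT library, and the mean was 944 ± 141 in knockout-labelled libraries and 1499 ± 140.3 in WT libraries, a ratio of 0.63. Pola1 fell in either fit (log2 -0.67 ± 0.12, FDR 0.00498; after subtraction log2 -0.35 ± 0.084, FDR 0.0118) and was called without any 1 of the 8 libraries in both. With exon union length it was at log2 -0.32, FDR 0.0172, and with principal transcript length at log2 -0.31, FDR 0.0192. Among the 4 libraries with the flattest length slopes, knockout-labelled 3 and 4 and WT 3 and 4, it was still called on deposited values (log2 -0.43, FDR 0.00492) and after subtraction (log2 -0.29, FDR 0.0186). With the length slope as a covariate it was at log2 -0.30, FDR 0.41.

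Pole, the catalytic subunit of the leading strand polymerase, had 1002, 1099, 1280.3 and 1504 normalised reads in knockout-labelled libraries, against 1738, 1718, 1604 and 1524 in WT libraries. The groups did not overlap on deposited values (log2 -0.45 ± 0.13, FDR 0.0207), and after subtraction the change was small and not called (log2 -0.10, FDR 0.337). Its deposited call was lost without knockout-labelled library 1 or WT library 1 or 2 (FDR 0.0615 to 0.0729). Pcna, the sliding clamp and the replication gene with the highest level per length, had 8128, 10571, 7242 and 6578 normalised reads in knockout-labelled libraries, against 6626, 6359, 8149 and 6999 in WT libraries, and was called in neither fit (log2 0.19, FDR 0.328; after subtraction log2 -0.0037, FDR 0.981, 95% interval -0.18 to 0.18). The ribonucleotide reductase genes Rrm1 and Rrm2 and the thymidylate synthase gene Tyms, which supply deoxynucleotides, were not called, at log2 0.097, FDR 0.278 for Rrm1, log2 0.030, FDR 0.779 for Rrm2 and log2 0.24, FDR 0.157 for Tyms after subtraction. Per kb of longest transcript the class ran from 144 normalised reads in knockout-labelled and 148 in WT libraries for Cdc6 to 5356 in knockout-labelled and 4633 in WT libraries for Pcna.

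Mitotic genes held the larger group of lower values. Top2a, the topoisomerase that untangles chromosomes and the mitotic gene with the highest mean level over all 8 libraries per kb of longest transcript, is annotated at chr11:98992943-99024189 on the minus strand (ENSMUSG00000020914). It had 8526, 6949, 9729 and 10365 normalised reads in knockout-labelled libraries 1 to 4, against 15969.8, 14162, 13008 and 11777 in WT libraries 1 to 4, and the groups did not overlap. Library 2 was the lowest of the knockout-labelled group and library 1 the highest of the WT group. Top2a fell in either fit (log2 -0.63 ± 0.14, FDR 0.0087; after subtraction log2 -0.34 ± 0.083, FDR 0.0119) and was called without any 1 of the 8 libraries in both. Under principal transcript length it was at log2 -0.30, FDR 0.017. In the 4 libraries with the flattest slopes it was at log2 -0.30, FDR 0.0527 on deposited values, where it was not called, and at log2 -0.19, FDR 0.0406 after subtraction, where it was.

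The cyclin that partners Cdk1 in mitosis, Ccnb2, was the 1 member called only after subtraction. It is annotated at chr9:70407692-70421547 on the minus strand (ENSMUSG00000032218) and has a short transcript of 1531 nt. Its deposited values overlapped, at 1456, 1513, 1304 and 1139 normalised reads in knockout-labelled libraries 1 to 4, against 1365, 1405, 1377 and 1355 in WT libraries 1 to 4 (log2 -0.033, FDR 0.842). With the trend subtracted, its log2 levels were 10.28, 10.24, 10.28 and 10.22 in knockout-labelled libraries, against 10.63, 10.62, 10.52 and 10.49 in WT libraries, with no overlap. It was lower in the knockout-labelled libraries by that measure (log2 -0.31 ± 0.068, FDR 0.00695), also without any 1 of the 8 libraries and with principal transcript length (log2 -0.28, FDR 0.013). Ccnb1 and Ccna2, the cyclins B1 and A2, were called in neither fit (log2 -0.085, FDR 0.457 for Ccnb1 and log2 -0.14, FDR 0.19 for Ccna2 after subtraction), and Cdk1 itself was at log2 0.30, FDR 0.128 and after subtraction log2 0.45, FDR 0.129.

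Mki67, the proliferation marker that coats mitotic chromosomes, had 6391, 5304, 6911 and 8473 normalised reads in knockout-labelled libraries 1 to 4, against 14013, 12403, 9595 and 8791 in WT libraries 1 to 4. The highest knockout-labelled library, number 4, was just below the lowest WT library, also number 4. Mki67 fell on deposited values (log2 -0.72 ± 0.17, FDR 0.0107), a call kept without any 1 of the 8 libraries. After subtraction its FDR lay at the threshold (log2 -0.26 ± 0.086, FDR 0.0499). That call was lost without knockout-labelled library 1, 2 or 3 or WT library 1, 2 or 3 (FDR 0.0531 to 0.165), and under each other setting of the subtraction that was run, except exon union length.

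The kinetochore genes with very long transcripts were called on deposited values and, by longest transcript length, not after subtraction. Cenpe, a motor that links chromosomes to microtubules and has the lowest level per length of its class in either group, had 1324, 1045, 1413 and 1657 normalised reads in knockout-labelled libraries, against 2723, 2566, 1858 and 1676 in WT libraries. Cenpf, which helps to dock that motor, had 2102, 1819.6, 2388 and 2797 normalised reads in knockout-labelled libraries, against 4636, 4206, 3115 and 2842 in WT libraries. Neither gene's groups overlapped, and both fell on deposited values, Cenpe at log2 -0.69 ± 0.17, FDR 0.0137 and Cenpf at log2 -0.69 ± 0.17, FDR 0.0127. With transcripts of 7910 and 11130 nt, both had smaller changes after subtraction, Cenpe at log2 -0.22, FDR 0.11 and Cenpf at log2 -0.14, FDR 0.22. With exon union length Cenpe was called lower (log2 -0.35, FDR 0.0334), and Cenpf was not called (log2 -0.18, FDR 0.129). Cenpf kept its deposited call without any 1 of the libraries, and Cenpe lost it without WT library 2 (FDR 0.0515).

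The mitotic kinesin Kif20a, which acts in cytokinesis, had 899, 780.3, 1161 and 1279 normalised reads in knockout-labelled libraries, against 1648, 1553, 1250.0 and 1317 in WT libraries. Knockout-labelled library 4 was above WT library 3, so the ranges overlapped. Kif20a fell in either fit (log2 -0.50 ± 0.16, FDR 0.0295; after subtraction log2 -0.44 ± 0.13, FDR 0.0388). The call was lost without knockout-labelled library 1 or 2 or WT library 1 or 2 on deposited values (FDR 0.0706 to 0.0941), and after subtraction without those 4 or WT library 4 (FDR 0.0501 to 0.114). In the 4 libraries with the flattest length slopes it was not called (log2 -0.074, FDR 0.772; after subtraction log2 -0.057, FDR 0.716). It shares 1271 exon bases with Cdc23 on the opposite strand, a gene that fell on deposited values (log2 -0.32, FDR 0.0451) and was not called after subtraction (log2 -0.18, FDR 0.11).

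Kif11, the kinesin that pushes spindle poles apart, had 3071, 3693, 3692 and 3657 normalised reads in knockout-labelled libraries, against 5789.8, 5229, 4657 and 4093 in WT libraries. It fell on deposited values with no overlap (log2 -0.48 ± 0.12, FDR 0.0135), lost that call without knockout-labelled library 1 (FDR 0.0529), and was not called after subtraction (log2 -0.21, FDR 0.0586). Bub1, a spindle checkpoint kinase, had 1103, 1109, 1129.5 and 1206 normalised reads in knockout-labelled libraries, against 1762, 1807, 1447 and 1191 in WT libraries. The knockout-labelled libraries were nearly level, and number 4 overlapped with WT library 4. Bub1 fell in either fit (log2 -0.43 ± 0.13, FDR 0.0271; after subtraction log2 -0.29 ± 0.087, FDR 0.0341). On deposited values that call was lost without knockout-labelled library 1, 2 or 3 or WT library 1 or 2 (FDR 0.0517 to 0.0947), and after subtraction without any of those or WT library 3 (FDR 0.0532 to 0.117). Its partner Bub1b was at log2 -0.16, FDR 0.233 and log2 -0.13, FDR 0.232.

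Cdc20, the activator of the anaphase-promoting complex, was the 1 mitotic gene called higher on deposited values. It had 4022, 4302, 3754 and 3401 normalised reads in knockout-labelled libraries, against 2867, 2826, 3343 and 3384 in WT libraries, with knockout-labelled library 4 just above WT library 4 (log2 0.32 ± 0.11, FDR 0.0408). After subtraction its sign was negative (log2 -0.044, FDR 0.655), and the deposited call held only without knockout-labelled library 4 or without WT library 4, being lost without any of the other 6 (FDR 0.0517 to 0.129). It shares 53 exon bases with Elovl1 on the opposite strand, which was not called (log2 0.39, FDR 0.0711). The mitotic kinases Plk1, Aurka and Aurkb followed the same course without being called, at log2 0.25, 0.16 and 0.19 on deposited values and -0.044, -0.082 and -0.070 after subtraction. Tpx2, which activates Aurora A at the spindle, was at log2 -0.19, FDR 0.14 and log2 -0.035, FDR 0.738. Per kb of transcript, Cenpe had 172 normalised reads in knockout-labelled and 279 in WT libraries, and Top2a had 1703 in knockout-labelled and 2629.6 in WT libraries. In the knockout-labelled libraries Cdc20, at 2158, Ube2c, at 1969, and Ccnb1, at 1785, were above Top2a. In WT libraries these genes were below it, at 1732, 1523 and 1884.

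The choice of transcript was compared in the 4 members whose longest transcript is at least 1.5 times as long as the principal one. Birc5, a subunit of the complex that corrects chromosome attachment, has 3334 nt by the longest transcript and 947 nt by the principal one. It was at log2 0.12, FDR 0.318 with the longest transcript and fell with the principal one (log2 -0.29, FDR 0.0207). Ube2c, which conjugates ubiquitin for the anaphase-promoting complex, has 2191 and 967 nt and was at log2 0.062, FDR 0.744 with the longest and log2 -0.20, FDR 0.207 with the principal transcript. Cdc6, with 4802 and 2559 nt, was at log2 0.12, FDR 0.423 and log2 -0.086, FDR 0.545, and Ccnd3 is given above. With principal lengths 8 of 51 members were called, with 17.4% of all genes called. Ccne1 (log2 0.24, FDR 0.0462), Rb1 (log2 0.28, FDR 0.0224) and Gins2 were higher, and Pola1, Ccnb2, Kif20a, Top2a and Birc5 were lower. The principal transcript was chosen as an alternative after seeing the data.

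Measured as a share of all recovered reads, mitotic genes took 0.316, 0.318, 0.343 and 0.343 percent in knockout-labelled libraries 1 to 4, against 0.451, 0.425, 0.395 and 0.373 percent in WT libraries 1 to 4. All knockout-labelled libraries were below all WT libraries. Long transcripts with many reads, such as Top2a and Mki67, weigh most in this sum. G1 regulators took 0.424, 0.340, 0.462 and 0.537 percent in knockout-labelled libraries, against 0.538, 0.533, 0.505 and 0.523 percent in WT libraries, a sum in which Ccnd1 and Ccnd2 weigh most, and the ranges overlapped through knockout-labelled library 4. Replication genes took 0.290, 0.282, 0.291 and 0.286 percent in knockout-labelled libraries, against 0.294, 0.292, 0.315 and 0.30 percent in WT libraries, and here too all knockout-labelled libraries were below all WT libraries, by a narrow margin. The median log2 deviation of the mitotic genes from their means gives each gene the same weight. On deposited values it was -0.137, 0.151, -0.035 and -0.102 in knockout-labelled libraries and 0.150, 0.098, 0.055 and -0.021 in WT libraries. The groups overlapped there, with knockout-labelled library 2 the highest. After subtraction this median was -0.12, 0.0046, -0.015 and -0.089 in knockout-labelled libraries and 0.19, 0.12, 0.039 and -0.025 in WT libraries. WT library 4 lay among the knockout-labelled libraries by that measure.

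**Figure D4:**
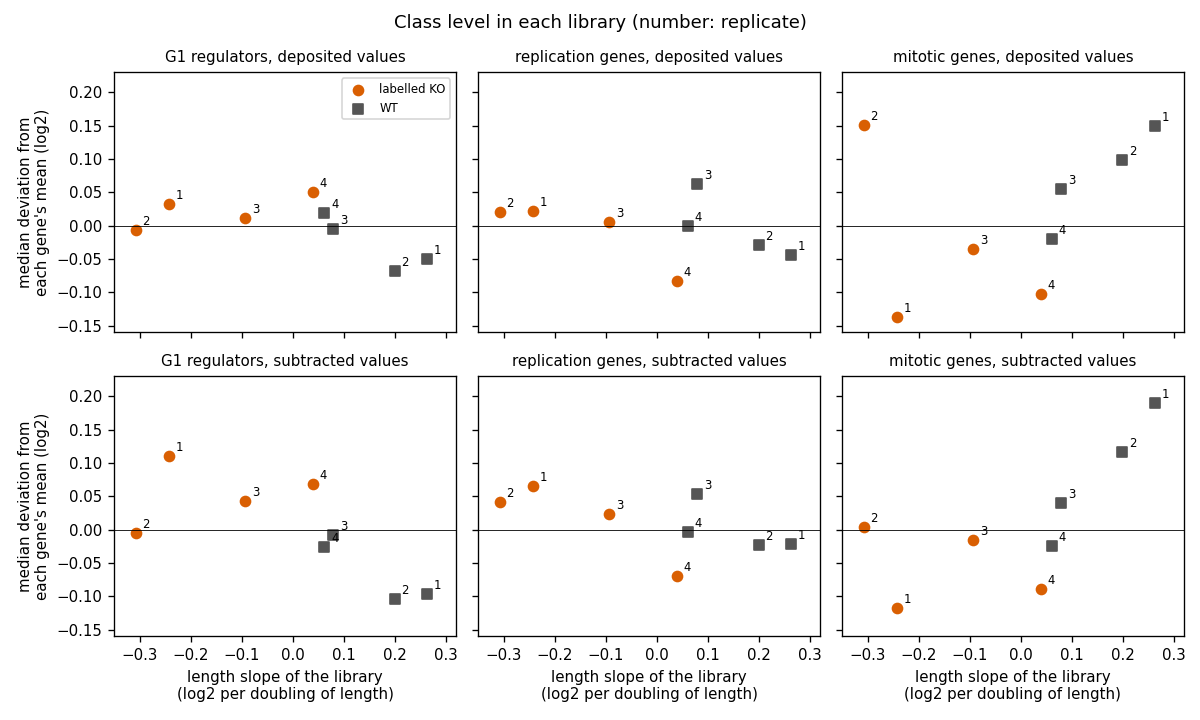
Median log2 deviation from the gene mean (vertical axis) of each class in each library against the library's length slope (horizontal axis, log2 per doubling of length), on deposited values (top) and with the length and GC trend subtracted (bottom). Orange circles are knockout-labelled libraries and grey squares are WT libraries, numbered by replicate. After subtraction the mitotic medians average -0.054 in the knockout-labelled libraries and 0.080 in the WT libraries, and the G1 medians average 0.054 in the knockout-labelled and -0.059 in the WT libraries.

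Leaving the steep libraries out reduced what could be called. With knockout-labelled 1 and 2 and WT 1 and 2 removed, 3 members were called on deposited values, Ccnd3 higher (log2 0.32, FDR 0.0433) and Ccne2 (log2 -0.40, FDR 0.0278) and Pola1 lower, with 9.15% of all genes called. The other 14 genes called on deposited values in all 8 libraries lay between log2 -0.30 (Top2a) and 0.20 (Gins2) in those 4. After subtraction 6 were called in those 4 libraries, Ccnd3 (log2 0.30, FDR 0.0117) and Rb1 (log2 0.29, FDR 0.0104) higher and Pola1, Ccna2 (log2 -0.21, FDR 0.0352), Ccnb2 (log2 -0.26, FDR 0.0279) and Top2a lower, with 10.9% of all genes called. Mki67 (log2 -0.072, FDR 0.51) and Bub1 (log2 -0.095, FDR 0.518) were not called there. With every library's length slope entered as a covariate, limma called 0 members, 7 having an unadjusted p under 0.05, and 1.09% of all genes. Phf23 was still called there (log2 0.65, FDR 0.0172). The slopes of the 2 genotypes do not overlap, so that fit separates slope and genotype only in part.

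A further 128 cell cycle genes outside the list were examined in the same fits. On deposited values 43 were called (33.6%, beside the 29.6% of all genes), and after subtraction 24 (18.8%, beside 18.4%). Other mitotic genes had 5 higher and 16 lower of 54 on deposited values and 3 higher and 9 lower after subtraction, with a median log2 fold change of -0.16 after subtraction. Kif14, a kinesin of cytokinesis, fell in either fit (479 ± 116 normalised reads in knockout-labelled and 904 ± 102 in WT libraries; log2 -0.94, FDR 0.00384; after subtraction log2 -0.49, FDR 0.00266). Ncapg, a condensin subunit, also fell (log2 -0.71, FDR 0.00608; after subtraction log2 -0.42, FDR 0.00454). Ccnf, cyclin F, rose (1729 ± 130.0 normalised reads in knockout-labelled and 1227 ± 50 in WT libraries; log2 0.49, FDR 0.00575; after subtraction log2 0.51, FDR 0.00114), as did Pttg1, which encodes securin (log2 0.82, FDR 0.00684; after subtraction log2 0.64, FDR 0.003).

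Other replication genes had 5 higher and 6 lower of 48 on deposited values, and 3 higher and 4 lower after subtraction. The origin recognition genes Orc3 (log2 -0.50, FDR 0.0101; after subtraction log2 -0.36, FDR 0.0106) and Orc2 (log2 -0.40, FDR 0.0282; after subtraction log2 -0.28, FDR 0.0447) fell in either fit, as did Topbp1, which helps to fire origins (log2 -0.47, FDR 0.0167; after subtraction log2 -0.22, FDR 0.0459). Rfc3 (log2 0.31, FDR 0.0463; after subtraction log2 0.35, FDR 0.0127) and Rfc2 (log2 0.31, FDR 0.0427; after subtraction log2 0.48, FDR 0.0259), subunits of the clamp loader for Pcna, rose in either. Rpa1, which coats single-stranded DNA, rose after subtraction only (log2 0.19, FDR 0.111; after subtraction log2 0.39, FDR 0.00768), and Gmnn, the Cdt1 inhibitor geminin, on deposited values only (log2 0.45, FDR 0.0221; after subtraction log2 0.059, FDR 0.676).

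Other G1 genes had 5 higher and 6 lower of 26 on deposited values, and 1 higher and 4 lower after subtraction. Their subtracted median log2 fold change was -0.14, with 10 positive and 16 negative values, a sign opposite to the 0.15 of the 14 G1 members. Cdkn1a, the inhibitor gene best known as a p53 target, rose in either fit, with its subtracted FDR near the threshold (log2 0.51, FDR 0.0056; after subtraction log2 0.23, FDR 0.0487). E2f7, a repressor of the E2F family, fell in either (log2 -0.66, FDR 0.011; after subtraction log2 -0.44, FDR 0.013). Tfdp2, a dimer partner of E2F factors, fell (log2 -0.59, FDR 0.00405) and Lin37, a subunit of the DREAM repressor complex, rose (log2 0.60, FDR 0.00918) on deposited values only. Cdkn2a (log2 0.32, FDR 0.298; after subtraction log2 -0.41, FDR 0.0081), Cdk7 (log2 -0.28, FDR 0.0655; after subtraction log2 -0.35, FDR 0.0229) and Cdkn1c (log2 -0.25, FDR 0.382; after subtraction log2 -0.68, FDR 0.0442) were lower after subtraction only.

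Some member counts may be shared with other loci. Of the 51 genes, 18 share exon bases with another annotated gene and 13 with one in the table, mostly on the opposite strand, and no source used here says whether counting used strand. Ccnb1, Ccnd3, Cdc6, Mcm7, Mki67, Pcna, Rrm2 and Tyms have pseudogene copies of at least 95 percent identity over at least 200 nt, and none of those copies is among the genes analysed here. Every member was well covered. The lowest value of any of them in any library was 395.5 normalised reads, and their means ran from 448 to 34545.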

How the data were processed

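Per the submitters' processing notes, the tools were STAR 2.7.1a, fastp 0.23.4, FastQC 0.12.1 and DESeq2 1.38.3, with no role stated, and the build was mm10. The counter, annotation and strand setting are not given there. The deposited signal values are whole reads divided by 1 factor per library: all values gave whole reads (100%, tolerance 0.0001). Of 15602 rows, 64 repeats were dropped. The lowest gene total was 11 reads. No column belonged to another sample.

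The main fit was limma 3.58.1 (R 4.3.3; trend, robust) on log2(value + 1), genotype only, as the unit was not raw counts. The second fit subtracted each library's loess trend (span 0.3) with log2 length of the longest GENCODE M21 transcript and GC content, estimated on genes with a mean of at least 10. Fold changes of low genes are understated on this scale. edgeR 4.0.16 and DESeq2 1.42.0 were run on the recovered reads as alternatives. The scripts were tested on simulated data.

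Values in each library are given for members called in either fit, the D and E cyclins and the highest and lowest member of each class by mean level per kb of longest transcript. Up to 4 other genes of lowest FDR per list and fit are named, and overlap partners, in the table, of called members and of Rb1. Members, lists and alternatives were chosen with earlier results of these data known. The labels do not say whether replicate numbers pair the libraries, and the main fits used no pairing.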

Additional observations from a re-analysis of the deposited data

Results flagged for a closer look

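In 3 of the 102 groups of 4 libraries checked (51 genes in each genotype), 1 library stood apart from the other 3 by Dixon's criterion at 95%, which chance alone would do in about 1 group in 20. Mcm3, a subunit of the replicative helicase, had 2893 normalised reads in knockout-labelled library 2, against 3655 to 3732 in the other 3 libraries of that group. Kif11, the spindle kinesin, had 3071 normalised reads in knockout-labelled library 1, against 3657 to 3693 in the other 3. Mcm10, which acts in helicase activation, had 1153 normalised reads in WT library 3, against 1191 to 1197 in the other 3 WT libraries, a gap of few reads. The lone low values of Mcm3 and Kif11 were in the 2 knockout-labelled libraries with the steepest length slopes (-0.31 in library 2 and -0.24 in library 1). After subtraction, the log2 level of Mcm3 was 11.51 in library 2, against 11.80 to 11.83 in the other knockout-labelled libraries. That of Kif11 was 11.78 in library 1, against 11.88 to 12.03 in the others, a narrower gap. The part of the slope in these values was not tested.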

How the results depend on the processing

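On deposited values, 17 of 51 members were called, beside 29.6% of all genes. All 3 edgeR fits also gave 17, beside 35.1%, 29.6% and 35.2% of the genes tested. A pseudocount of 0.1 and a mean of at least 10 also gave 17, beside 29.1% and 35.5%. DESeq2 gave 18, beside 37.2%, and library size scaling alone 16, beside 29.5%. With the replicate block, 0 members were called by limma (19 with an unadjusted p under 0.05), with 333 of all genes and 1 of the 128 other cell cycle genes. Same-numbered libraries did not vary together on deposited values (correlations -0.330, -0.133, -0.188 and -0.285). Those values carry the length slopes of the libraries, so these correlations cannot decide whether the replicate numbers stand for a pairing. The length slope as a covariate gave 0 members (7 at p under 0.05), 170 genes and 0 other cell cycle genes (9 at p under 0.05). It moved the median log2 fold change of G1 regulators to 0.10 and of replication genes to -0.10, and reversed Cdk4 (-0.087, FDR 0.830) and Kif20a (0.11, FDR 0.826). Without the 4 libraries of the steepest slopes there were 3 members, 1422 genes and 9 other cell cycle genes, with medians of 0.073 for G1 regulators and -0.076 for replication genes. Library size scaling alone put these medians at -0.034 and -0.017, with the median of all genes at -0.060. Leaving out 1 library gave 5 (without knockout-labelled library 1) to 22 members (without knockout-labelled library 4), 1884 to 5861 genes and 13 to 55 other cell cycle genes. There were 10 members without WT library 1 and 6 without WT library 2.

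After subtraction, 9 members were called, beside 18.4% of all genes. There were 11 with exon union length (21.4% of genes tested) or without GC content (20.1%). There were 8 with a span of 0.6 (18.4%), a pseudocount of 0.1 (17.9%), a mean of at least 10 (22.2%) or principal transcript length (17.4%). The G1 median was 0.046 with exon union length and 0.098 with principal length. With the replicate block there were 4 members (Ccnd3, Pola1, Ccnb2 and Top2a), 1470 genes and 10 other cell cycle genes. Without the 4 steepest libraries there were 6 members, 1699 genes and 12 other cell cycle genes, with medians of 0.050 for G1 regulators, -0.057 for replication genes and -0.026 for mitotic genes. Leaving out 1 library gave 4 (without knockout-labelled library 1, WT library 1 or WT library 2) to 14 members (without knockout-labelled library 4), 1519 to 3750 genes and 10 to 39 other cell cycle genes. For the named genes, with 1 library left out 40 deposited calls were lost and 104 kept, and 25 subtracted calls lost and 55 kept; under other settings 48 were lost with the same sign, the 2 named above were lost and reversed and 130 were kept, and after subtraction 18 were lost and 62 kept. The causes were not tested. With 4 libraries a group, the spread between libraries limits what can be called, and a p that misses the threshold does not show that a gene did not differ.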
